A study of Mus musculus with 10 samples.

Results

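CBA and BL10 quadriceps RNA was compared directly on 2 of the 10 arrays of the study, CBA 1 against BL10 1 and CBA 2 against BL10 2. The study covered 5 inbred mouse strains, with spotted long oligonucleotides read in 2 colours and 2 male animals of each strain, and each hybridisation paired animals of different strains, one in Cy5 and the other in Cy3. CBA (CBA/CaOlaHsd) and BL10 (C57Bl/10ScSnOlaHsd) are inbred strains, and the male animals were 8 weeks old when the m. quadriceps femoris was taken. The other strains enter here through BL6, DBA and BALB animals, also male and of the same age. CBA was in Cy5 on both arrays, so the labelling never ran the other way round between these strains. The response of each gene to the dyes therefore had to come from other arrays, and the mean of DBA 1 over BL6 1 and BL6 1 over DBA 2 was taken as that gene-wise dye value. BL6 1 cancels in this mean, since it was in Cy3 on one array and in Cy5 on the other, but part of any difference between DBA 1 and DBA 2 stays in it. A ratio also holds both the strains and the 2 individuals, and there are 2 individuals per strain. The values are ratios without levels, so the tissue could not be checked against its defining markers.

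Inbred strains carry fixed alleles, so a difference that recurs in separate animals of a strain can be inherited. Mouse quadriceps is built mainly of fast fibres with large amounts of contractile protein, glycolytic enzymes and mitochondria, and whole muscle also carries capillaries, nerve, connective tissue, resident macrophages and some fat. In such bulk RNA fewer cells of a type and less RNA per cell cannot be told apart. The cDNA was primed at random positions, which lets RNAs without a poly(A) tail, such as spliceosomal RNAs, reach the array.

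Each oligonucleotide was spotted in duplicate, and 7697 features were tested after the 80 control features were averaged, 6752 of them with a gene name. Duplicate spots correlated at 0.755 on the array of CBA 1 and BL10 1 and at 0.853 on that of CBA 2 and BL10 2. On the arrays for the dye value this was lower, at 0.716 and 0.645. The array labelled BL6 2 over CBA 1 and that labelled BALB 1 over CBA 2 held the same value at every spot, so at least 1 of them does not show the animals it names and both were left out of the fit, which used 8 arrays. All differences are log2 values of CBA minus BL10, and the fitted difference comes from limma with strain and a gene-wise dye term over these 8 arrays. On these arrays CBA was set only against BL10. A fitted difference of CBA from the other strains therefore runs through BL10, with the dye term in both steps, and is no separate comparison.

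Only RNA features that were low in CBA on both arrays passed the test. At a false discovery rate (FDR) of 10%, 3 of 7697 features (0.039%) fell in CBA against BL10 and 0 rose. At an unadjusted p under 0.05, limma gave 411 features higher (5.34%) and 533 lower (6.92%) in CBA. The named feature is Rnu5g (M10336, on chromosome 9), a U5 small nuclear RNA, which is a core RNA of the spliceosome. Its duplicate spots read -2.77 and -2.60 for CBA 1 over BL10 1, and -2.72 and -1.56 for CBA 2 over BL10 2. All 4 spots were thus far below zero, the last of them less than the rest. The gene-wise dye value was -0.03, so the 2 arrays hardly moved on its removal, to -2.66 and -2.11. The fitted difference was -2.57 with a standard error of 0.22, a 5.94-fold lower signal in CBA (adjusted p = 0.0026, limma). The call was lost with the second spot of each array alone, at -2.14 (adjusted p = 0.166, limma), and with an ordinary test that shares no spread across features (adjusted p = 0.408). Near-identical U5 copies lie elsewhere in the genome, and which of them an oligonucleotide of this gene captured cannot be told from the ratio.

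The same animals of BL10 stood apart from the other strains in this RNA. With BL10 in Cy5 instead, Rnu5g read 2.82 for BL10 1 over BALB 2 and 2.21 for BL10 2 over DBA 1, so the sign followed BL10 through both dyes. Between the other strains the ratio was near zero, at 0.01 for DBA 1 over BL6 1 and -0.07 for BL6 1 over DBA 2. In the fit, Rnu5g in BL10 lay 2.31 ± 0.24 (SE) above the mean of BL6, DBA and BALB (adjusted p = 0.0143, limma), while CBA differed from that mean by -0.26 ± 0.35 (adjusted p = 0.788, limma). Both BL10 animals were thus high in Rnu5g, and CBA could not be separated from the other strains.

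**Figure D1:**
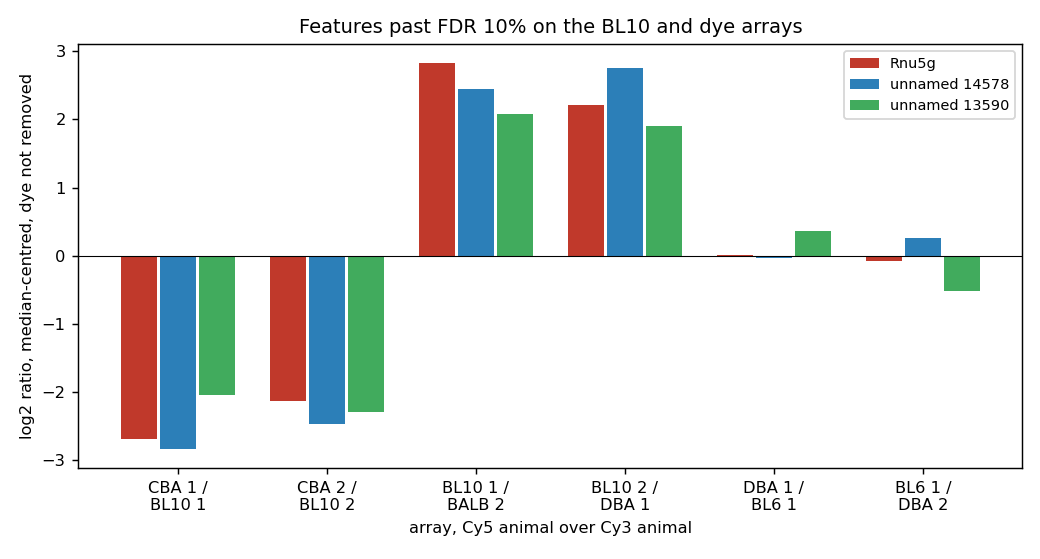
The log2 ratio of Rnu5g and of the 2 unnamed features past FDR 10% is drawn for 6 arrays, each Cy5 animal over Cy3 animal, after centring and without dye removal. Bars are below -2 wherever BL10 is in Cy3, above 1.9 wherever it is in Cy5, and between -0.53 and 0.36 on the 2 arrays without BL10.

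The remaining features past the threshold have no gene name in the annotation given here. Feature 14578, counted by its place on the array, read -2.84 and -2.48 on the 2 arrays and had a fitted difference of -2.84 ± 0.16 (adjusted p = 0.000207, limma). Feature 13590 read -2.05 and -2.30, with a fitted difference of -2.27 ± 0.20 (adjusted p = 0.0026, limma). Both were high in BL10 in Cy5 as well, at 2.44 and 2.75 for feature 14578 and at 2.07 and 1.90 for feature 13590. Against the mean of BL6, DBA and BALB, 3 features were higher in BL10 (0.039%) and 0 lower, and these were the same features, with differences of 2.31, 2.43 and 1.93. For CBA against that mean 0 features passed (0%), with 847 at an unadjusted p under 0.05 (11%, 4.64% higher and 6.37% lower) and a smallest adjusted p of 0.317. At that unadjusted p, 631 features differed between BL10 and the mean (8.2%, 3.36% higher and 4.83% lower).

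Of the spliceosomal and other small RNAs listed, 5 were on the array. The fitted difference was below zero for 5 of 5, against 3921 of 7697 over all features, with a median of -0.97 against -0.01. Of the 5, Rnu5g passed the test, and the 4 spots were of one sign for 3 (60% against 25.6% of all features). Rnu6 (M10329), the U6 RNA of the spliceosome, read -0.33 and -0.45 with a fitted difference of -0.55 ± 0.15 (adjusted p = 0.276, limma). Rny3 (U34827), a Y RNA bound by the Ro protein, read -2.11 and -1.04, but its dye value of -0.94 took most of that away on the second array, leaving -1.17 and -0.09. Rny1 (U34828), another Y RNA, read -1.29 for CBA 1 and 0.05 for CBA 2, so it was low in only 1 of the 2 pairs. Both Y RNAs were also high in BL10 in Cy5, at 1.90 and 1.68 for Rny3 and at 1.64 and 0.996 for Rny1.

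Agreement in sign was far more common than significance. Before dye removal, both duplicate spots on both arrays had one sign for 4994 features (64.9%, as 31.7% higher and 33.2% lower in CBA), and the 2 arrays correlated at 0.784 across features. The dye value itself correlated with these arrays at 0.595 and 0.623, and its median size of 0.284 exceeded the median size of 0.125 of the gap between the 2 arrays. After dye removal 4650 features (60.4%) had 4 spots of one sign, and 1972 (25.6%) had the same sign before and after, 931 higher in CBA (12.1%) and 1041 lower (13.5%). The balance between the directions depended on the scaling, since without centring of the arrays 1157 were higher and 831 lower. With the dye value taken from a loop of 3 arrays among BL6, DBA and BALB 622 were higher and 771 lower, 1118 of them shared with the 1972. One dye value is subtracted from all 4 spots, so their agreement after removal is no check on the dye value. With the additional condition of an unadjusted p under 0.05, 115 features were higher in CBA (1.49%) and 345 lower (4.48%), together 5.98%.

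**Figure D2:**
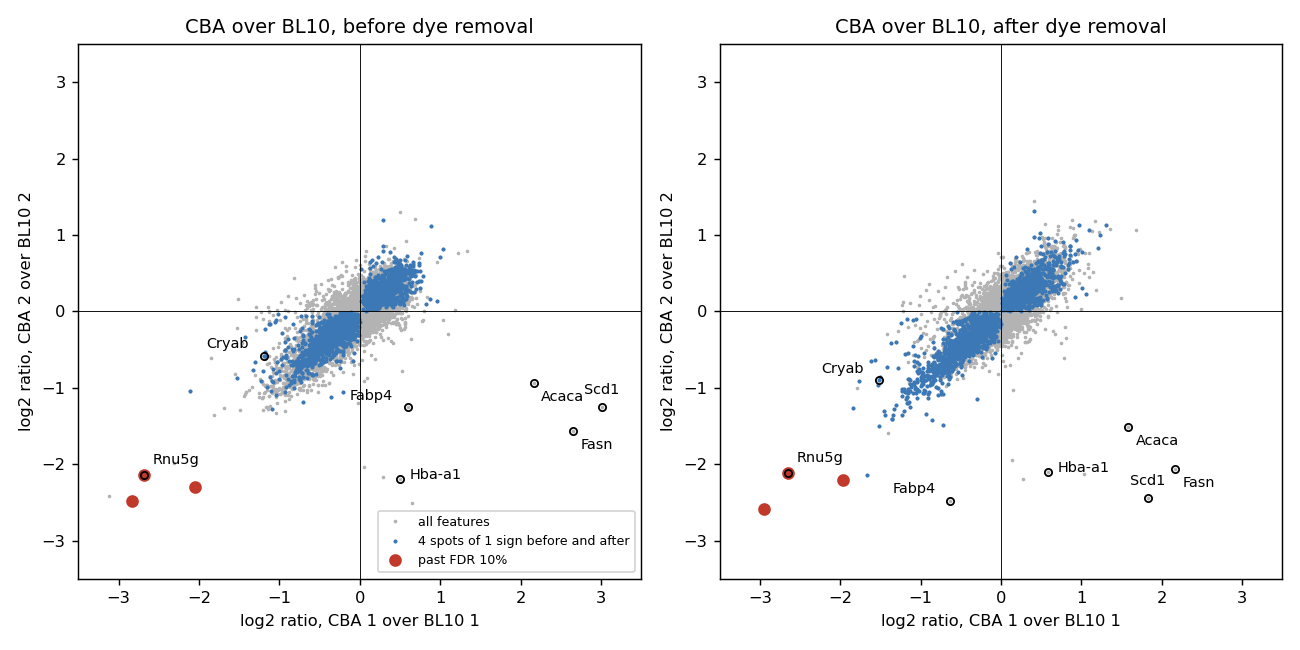
The log2 ratio of CBA 2 over BL10 2 is plotted against that of CBA 1 over BL10 1 for 7697 features, before and after removal of the gene-wise dye value, with features of one sign in 4 spots in both forms in blue. The 3 features past FDR 10% lie at the lower left, and Fasn, Scd1, Acaca and Hba-a1 lie at the lower right, positive for CBA 1 and negative for CBA 2.

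With the centring and dye value used here, differences of size were mostly towards lower values in CBA. The counts that follow were not repeated without centring or with another dye value. With every spot beyond 0.2 in one direction before and after dye removal, 129 features were higher (1.68%) and 332 lower (4.31%) in CBA. Beyond 0.5 there were 0 higher and 48 lower (0.624%), and beyond 1 there were 3 lower, the features past FDR 10%. At any p, the fitted difference was above 1 for 4 features and below -1 for 19. The median standard error of a fitted difference was 0.17.

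The direction of many small differences depended on the dye estimate. For the 345 features lower in CBA, DBA 1 over BL6 1 had a median of 0.57 and BL6 1 over DBA 2 one of 0.10, where a dye effect alone would give equal values. A fit without BL6 1 drops both arrays behind the dye value. Its dye rests on BL10 1 over BALB 2, BL10 2 over DBA 1 and DBA 2 over BALB 1. Differences between the 2 animals of BL10, of DBA and of BALB stay in that dye, and the BL10 animals are those of the comparison. The fit without BL6 1 had 1 residual degree of freedom against 3, and a median standard error of 0.22 against 0.17. Its dye term correlated with that of the main fit at 0.739, and which of them is nearer the true dye effect was not tested. The fit without BL6 1 kept the direction of 225 of those 345 (65.2%), of 90 of the 115 higher features (78.3%), and of 757 of all 1972 with 4 spots of one sign (38.4%). The 3 features past FDR 10% kept their direction and their call. Over all 7697 features the same fit kept the direction of 4758 (61.8%).

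Among the leading genes with lower values in CBA, none of those after Rnu5g passed the adjusted test. The 11 that follow, taken by the smallest of their 4 dye-removed spots, are Itgax, Camk2d, Aym1, Tcirg1, Tead4, Omg, Mad1l1, Cblif, Kcna3, Avpr1b and Sva. Omg (NM_019409), an oligodendrocyte myelin glycoprotein that inhibits neurite growth, had the lowest fit of them, -1.31 ± 0.24 (adjusted p = 0.259, limma). Its arrays read -1.16 and -0.59 before dye removal, the first resting on unequal spots of -1.76 and -0.57. Aym1 (AF069744) read -0.74 and -0.59 and had a fitted difference of -1.15 ± 0.21. Avpr1b (NM_011924), a vasopressin receptor best known from the pituitary, read -0.52 and -0.49, and its fit was -0.97 ± 0.20. These 3 kept their sign without BL6 1, at -0.55 for Omg, -0.35 for Aym1 and -0.27 for Avpr1b.

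The sign turned without BL6 1 for the other 8 of the 11. Tead4 (U51744), a TEA domain factor that acts with YAP and is expressed in muscle precursors, read -1.04 and -1.09 on the 2 arrays, nearly equal between the pairs, and its dye value was 0.32. Its fitted difference was -1.12 ± 0.30, yet 0.45 without BL6 1. Camk2d (AF059029), a calmodulin-dependent kinase of muscle and heart, read -0.70 and -0.64 with a fitted difference of -0.99 ± 0.28, which became 0.37. Itgax (NM_021334), an integrin of dendritic cells and macrophages, read -0.73 and -0.65, and Tcirg1 (NM_016921), a subunit of the vacuolar proton pump, -0.71 and -0.72. Their fits were -1.04 ± 0.29 and -1.04 ± 0.28, and 0.26 and 0.27 without BL6 1. Kcna3, a potassium channel of lymphocytes, Mad1l1 of the spindle checkpoint, Cblif, the intrinsic factor that carries vitamin B12, and Sva, a secreted protein of the seminal vesicle, had fits from -0.96 to -0.84, which were 0.40, 0.23, 0.11 and 0.25 without BL6 1. All 8 had BL10 in Cy5 above zero too, from 0.39 to 0.63 for BL10 1 over BALB 2 and from 0.17 to 0.42 for BL10 2 over DBA 1, before dye removal. After it, 5 of the 8 lay below zero on the first of these arrays, with a range of -0.26 to 0.32, and 8 of 8 on the second, with a range of -0.49 to -0.06.

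**Figure D3:**
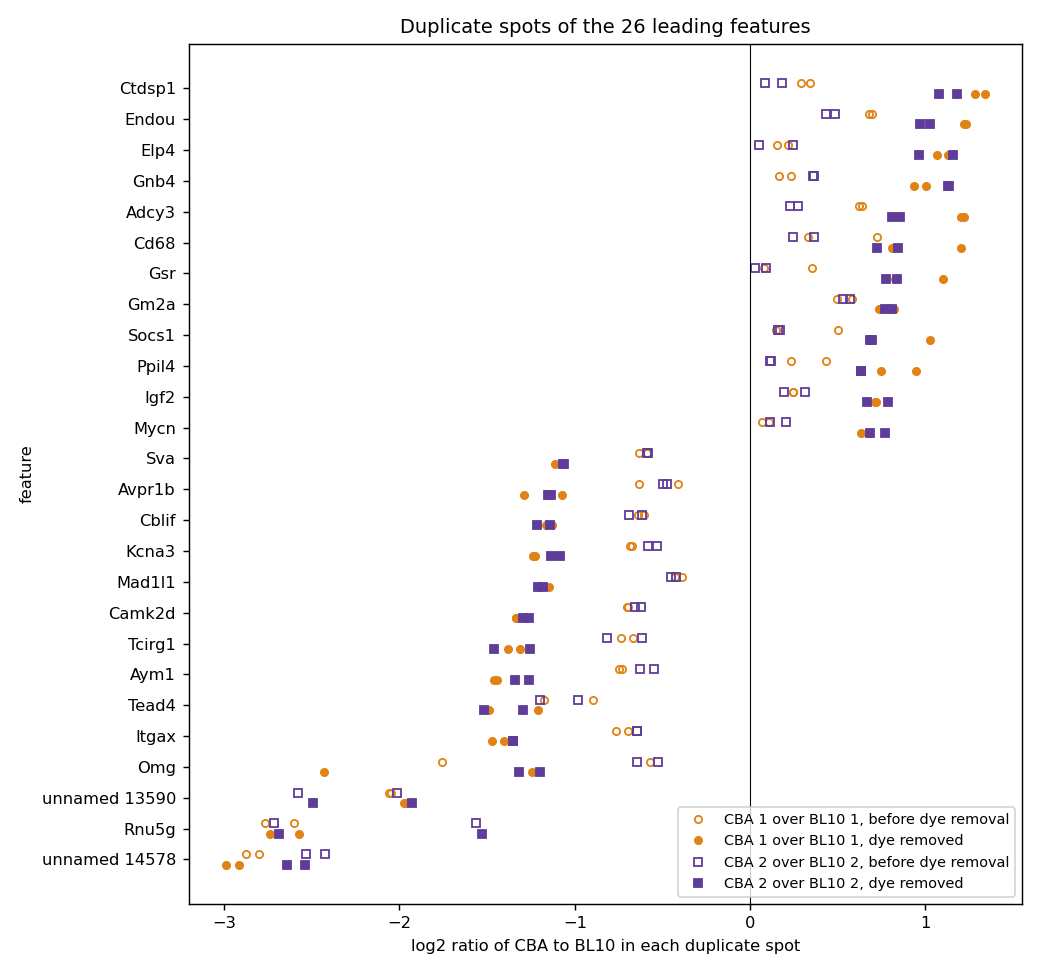
The log2 ratio of CBA to BL10 is shown for each duplicate spot of the 26 leading features, with open marks before and filled marks after dye removal, circles for CBA 1 over BL10 1 and squares for CBA 2 over BL10 2. Removal shifts the 11 lower genes away from zero, so that all 4 spots of each lie below -1, and hardly moves Rnu5g and the unnamed features.

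Genes with higher values in CBA had smaller ratios before dye removal. Cd68 (NM_009853), a lysosomal protein of macrophages, read 0.53 and 0.31 before dye removal and 1.01 and 0.78 after, with a fitted difference of 0.92 ± 0.16, a 1.89-fold higher signal in CBA (adjusted p = 0.259, limma) that was 1.30 without BL6 1. Against the mean of BL6, DBA and BALB, which the fit reaches only through BL10, Cd68 was 1.45 ± 0.26 higher in CBA (adjusted p = 0.332, limma). Gsr (X76341), glutathione reductase, read 0.21 and 0.06 before dye removal, with a fit of 0.82 ± 0.16 in which the dye term was -0.68, and 0.45 without BL6 1. Gm2a (NM_010299), the lysosomal activator of ganglioside breakdown, read 0.54 and 0.55, with a fit of 0.59 ± 0.19 that shrank to 0.04 without BL6 1. Socs1 (NM_009896), an inhibitor of cytokine signalling, read 0.33 and 0.17, with fits of 0.68 ± 0.16 and, without BL6 1, 0.72. Igf2 (NM_010514), a growth factor of fetal and regenerating muscle, read 0.25 and 0.26, and its fit of 0.53 ± 0.20 became 0.41.

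Of the remainder, Elp4 of the Elongator complex, Ppil4, a cyclophilin, and the transcription factor Mycn kept a positive fit without BL6 1, at 0.52, 0.13 and 0.01. Endou, an endoribonuclease, Adcy3, an adenylyl cyclase, Gnb4, a G protein beta subunit, and Ctdsp1, a phosphatase of RNA polymerase, had fits between 0.75 and 0.83 that turned to values between -0.25 and -0.01. Both Adcy3 and Endou were unequal between the arrays, at 0.63 and 0.25 for Adcy3 and at 0.69 and 0.46 for Endou. Rnf187 (AB030190), a RING finger ubiquitin ligase, and Tpm2 (M81086), the beta tropomyosin of thin filaments, were picked after their values were seen. Rnf187 had the smallest adjusted p below the called features, 0.12, with -0.36 and -0.35 on the arrays, a dye value of 0.63 and a fit of -0.99 ± 0.14 that was -0.88 without BL6 1. Tpm2 read -0.36 and -1.12, with a fit of -1.19 ± 0.21 and -1.29 without BL6 1.

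Removal of the dye value turned the sign of all 4 spots for 1308 features (17%), 659 from lower to higher (8.56%) and 649 from higher to lower (8.43%). The 659 had a median dye value of -0.75 and the 649 one of 0.46. Nkx2-1 (NM_009385), a factor of lung and thyroid, read -0.88 and -1.15 for CBA over BL10 and became 1.36 and 1.08, since DBA 1 over BL6 1 and BL6 1 over DBA 2 both read low, at -2.55 and -1.92. Both BL10 arrays with BL10 in Cy5 were low too, at -1.51 and -1.66. Septin3, a neuronal septin, went from -0.75 and -0.39 to 0.71 and 1.06, and Slfn1, a gene of quiescent T cells, from -0.43 and -0.59 to 0.98 and 0.82. The other way, Ddx6, an RNA helicase of P-bodies, Ccng1, a cyclin induced by p53, and Cmya5, a sarcomere-associated protein also called myospryn, went from ratios of 0.11 to 0.28 to -0.72 to -0.55. In the fit these 3 had -0.35, -0.30 and -0.15, none beyond 2 of its standard errors (0.24, 0.26 and 0.39).

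The subunits of the respiratory chain and ATP synthase had mostly negative values. Of 28 features, 24 had a fitted difference below zero against 3921 of 7697 over all features, and the median was -0.39. The 4 spots were of one sign before and after dye removal for 17 lower and 2 higher, together 67.9% against 25.6% of all features. The median ratio before dye removal was already below zero on both arrays, at -0.33 and -0.15. No member passed FDR 10%, and 9 were lower at an unadjusted p under 0.05, which 6.92% of all features were. The direction of the list differed between dye estimates, with a median of -0.24 with no dye term and 0.20 without BL6 1.

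Cox5b (NM_009942), a nuclear-encoded subunit of cytochrome c oxidase, read -0.97 for CBA 1 over BL10 1 and -0.29 for CBA 2 over BL10 2. Cox7c (NM_007749) of the same complex read -0.90 and -0.37. Ndufa4 (U59509), which was first assigned to complex I and is now counted with cytochrome c oxidase, read -0.93 and -0.07. In all 3 the first pair of animals was farther apart than the second. The fits were -0.85 ± 0.26 for Cox5b, -0.58 ± 0.33 for Cox7c and -1.09 ± 0.29 for Ndufa4, and without BL6 1 they were 0.13, 0.36 and 0.00. Atp5pb (U29530), of the stalk of ATP synthase, was even between the pairs, at -0.27 and -0.34, with a fit of -0.76 ± 0.18 (adjusted p = 0.264, limma) that was -0.15 without BL6 1.

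Heat shock proteins and their co-chaperones kept a negative median under both dye estimates. Of 22 features, 19 had a fitted difference below zero against 3921 of 7697, the median was -0.24 and it was -0.17 without BL6 1 and -0.10 with no dye term. The 4 spots were of one sign for 8 lower and 0 higher (36.4% against 25.6% of all features), none past FDR 10%, and 7 were lower at an unadjusted p under 0.05 against 6.92% of all features. Cryab (NM_009964), alpha B-crystallin, the small heat shock protein that binds desmin and titin at the Z-disc, had spots of -1.26 and -1.13 in the first pair and -0.58 and -0.57 in the second. Its fit was -1.32 ± 0.24, a 2.5-fold lower signal in CBA (adjusted p = 0.259, limma). It was -1.02 without BL6 1. Cryab in CBA differed from the mean of BL6, DBA and BALB by -1.20 ± 0.38 (adjusted p = 0.419, limma), and BL10 differed from that mean by 0.13 ± 0.26. The difference of CBA from that mean also runs through BL10.

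Hspd1 (X53584), the mitochondrial chaperonin, read -0.49 and -0.41 with a fit of -0.77 ± 0.25, and Hsph1 (NM_013559), a nucleotide exchange factor of Hsp70, -0.59 and -0.27 with a fit of -0.58 ± 0.24. Hspa9 (NM_010481), the mitochondrial Hsp70, was nearly equal before dye removal, at -0.08 and -0.09, and had a fit of -0.60 ± 0.19 in which the dye term was 0.51. Without BL6 1 these were -0.05, 0.12 and -0.16. Hspb1 (NM_013560), a small heat shock protein that is abundant in muscle and forms oligomers with others of its family, was picked after its values were seen. It read -0.73 for CBA 1 but -0.06 for CBA 2, with a fit of -0.68 ± 0.20 and -0.52 without BL6 1. Dnaja1 (NM_008298), an Hsp40 co-chaperone picked in the same way, read -0.50 and -0.41 with a dye value of -0.07, and its fit was -0.19 ± 0.20, against 0.03 without BL6 1.

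Heat shock factor binds inverted repeats of GAA, and the promoters of 3 members that were low in all 4 spots and hold such a repeat are shown for reference. They are the 250 bases before the annotated start in RefSeq on GRCm38.p6, 5′ to 3′ on the strand of the gene, with each match to GAANNTTC in capitals. The motif equals its own reverse complement, so one search covers both strands, and the 2 matches of Hspb1 do not overlap. Of the 18 list members with a promoter in the table, out of 21 genes on the array, 6 held a match in any of their promoters. Of all 32851 promoters, counted singly and not by gene, 6.69% did, so these shares are of unlike units. The match describes letters and no binding, and Hsph1, among others low in 4 spots, held none in this window.

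Hspb1 (chr5:135887669-135887918, + strand): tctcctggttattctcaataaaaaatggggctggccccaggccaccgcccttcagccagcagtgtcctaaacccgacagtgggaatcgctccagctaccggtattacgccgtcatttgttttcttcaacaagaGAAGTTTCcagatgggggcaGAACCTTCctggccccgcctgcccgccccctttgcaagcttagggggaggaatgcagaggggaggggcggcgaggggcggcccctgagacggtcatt
Hspd1 (chr1:55087933-55088182, - strand): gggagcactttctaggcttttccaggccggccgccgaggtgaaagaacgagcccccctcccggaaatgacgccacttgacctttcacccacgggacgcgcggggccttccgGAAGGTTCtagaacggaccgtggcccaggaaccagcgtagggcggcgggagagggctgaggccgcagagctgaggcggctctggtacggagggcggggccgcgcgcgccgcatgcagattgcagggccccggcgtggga
Dnaja1 (chr4:40722218-40722467, + strand): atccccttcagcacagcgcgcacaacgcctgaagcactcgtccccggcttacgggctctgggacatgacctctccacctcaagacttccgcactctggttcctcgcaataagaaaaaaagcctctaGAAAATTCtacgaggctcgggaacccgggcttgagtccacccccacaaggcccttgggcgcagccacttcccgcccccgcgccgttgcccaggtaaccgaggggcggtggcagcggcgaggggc

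Structural genes of the sarcomere, Z-disc and M-band had a median of -0.39, with 16 of 21 features below zero against 3921 of 7697 over all features. The 4 spots were of one sign for 7 lower and 2 higher (42.9% against 25.6% of all features). Several of the 7 lower are features of Neb, so this share counts 1 gene more than once. No feature of the list passed FDR 10%. The median was 0.40 without BL6 1, so the direction of the list turned with the dye estimate. The clearest case was Neb, nebulin, the giant protein along the thin filament, with 4 features. They read close to zero for CBA over BL10, from -0.22 to 0.02 in the first pair and from -0.34 to -0.17 in the second. DBA 1 over BL6 1 was high in all 4, from 1.67 to 3.39, and BL6 1 over DBA 2 below zero, from -1.23 to -0.19. BL6 and DBA changed dyes between these arrays, so a strain difference gives opposite signs, and the study lists nebulin as low in BL6. The sizes were unequal, which left dye values of 0.74 to 1.42. Fits of the 4 features ran from -0.53 to -0.39 with standard errors of 0.32 to 0.65, and from 0.98 to 1.72 without BL6 1. Rdx (NM_009041), radixin, which ties actin to the membrane, read -0.48 and -0.40 with a fit of -0.78 ± 0.35 and 0.39 without BL6 1.

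All 10 features of slow fibre proteins had fits below zero, as did 3921 of 7697 over all features. Their median was -0.19, which was -0.45 without BL6 1 but 0.12 with no dye term. In this list 4 spots were of one sign for 1 member (10% against 25.6% of all features). That member was Casq2 (NM_009814), the calcium store protein of slow and cardiac muscle, at -0.35 and -0.15 with a fit of -0.45 ± 0.16 that was -0.04 without BL6 1. Atp2a2 (NM_009722), the slow calcium pump, and Tnni1 (NM_021467), slow troponin I, read 0.28 and 0.00, and 0.11 and 0.10, with fits of -0.37 ± 0.16 and -0.31 ± 0.14. Actn2 (AF248643), the alpha-actinin of all fibres, read -0.21 and -0.80. Among 8 features of fast fibre proteins the median was -0.25, with 6 below zero. Pvalb (NM_013645), parvalbumin, the calcium buffer of fast fibres, read -0.06 and 0.13 with a dye value of 0.73 and a fit of -0.71 ± 0.15 (adjusted p = 0.264, limma). Tnnc2 (NM_009394), fast troponin C, read -0.25 and -0.65 with a fit of -0.72 ± 0.32.

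Calcium handling and excitation genes were divided, with 12 of 20 features above zero against 3776 of 7697 over all features, and a median of 0.02. Chrne (NM_009603), the adult subunit of the acetylcholine receptor at the motor endplate, read 0.29 and 0.10 with a fit of 0.60 ± 0.15. Cacng1 (NM_007582), a subunit of the calcium channel of the T-tubule, read -0.25 and -0.20 with a fit of -0.49 ± 0.18 and -0.02 without BL6 1. Genes of the dystrophin complex and membrane repair had a median of -0.07 over 15 features. Dysf (AF188290), dysferlin, needed for membrane resealing, read -0.04 and -0.30 with a fit of -0.30 ± 0.22. Myom1 of the M-band, Tmod1, which caps thin filaments, Cstb, a protease inhibitor, and Thbs4, a matrix protein of tendon and muscle, had fits between -0.26 and 0.12, with standard errors of 0.14 to 0.26. Together with Neb, Rdx, Actn2 and Dysf, the genes that the study's text names came to 11 features with a median of -0.38, which was 0.50 without BL6 1, and since the study chose them on these samples they are no independent evidence of a direction.

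Glycolysis and glycogen genes lay on the other side, with 22 of 29 features above zero against 3776 of 7697 over all features. The median was 0.14, and 0.49 without BL6 1. It was -0.01 with no dye term, and 4 spots were of one sign for 2 lower and 3 higher (17.2% against 25.6% of all features). Phka1 (X73876), a regulatory subunit of phosphorylase kinase, was the most negative, at -0.71 and -0.70 with a fit of -0.74 ± 0.26, turning to 0.49 without BL6 1. The other features of Phka1 did not follow it, with fits of 0.21 ± 0.18 for X73877 and 0.14 ± 0.16 for NM_008832. Slc2a1 (M23384), the basal glucose transporter, read -0.24 and -0.28 with a fit of -0.65 ± 0.16, or -0.22 without BL6 1. Fbp1 (NM_019395), a fructose bisphosphatase of gluconeogenesis, went the other way, from -0.56 and -0.69 to a fit of 0.63 ± 0.14 in which the dye term was -1.25. Of the 14 features of fatty acid oxidation 7 lay above and 7 below zero, around a median of -0.03. Fabp3 (NM_010174), the fatty acid carrier of muscle and heart, was lower in CBA in 4 spots, at -0.71 and -0.22, with a fit of -0.81 ± 0.18 (adjusted p = 0.264, limma) and -0.49 without BL6 1.

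**Figure D4:**
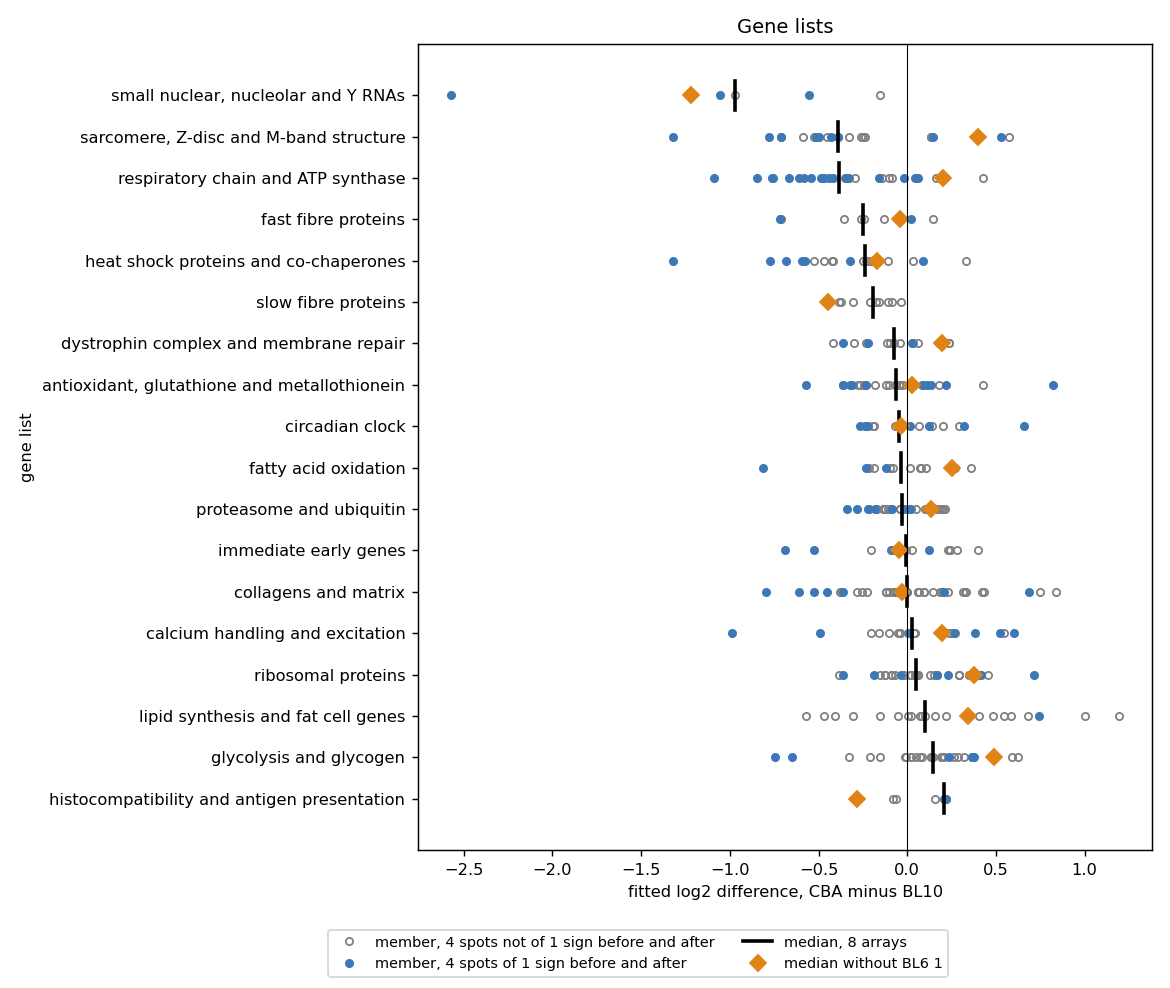
Fitted log2 differences, CBA minus BL10, are shown for the features of 18 gene lists, filled where 4 spots had one sign before and after dye removal, with the list median as a bar and the median of a fit without BL6 1 as a diamond. Bar and diamond lie on the same side of zero for most lists, among them small RNAs, heat shock proteins, slow and fast fibre proteins, glycolysis and ribosomal proteins. They lie on opposite sides for others, such as the sarcomere and the respiratory chain.

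Among named features, the 2 pairs of animals disagreed most over fat synthesis. Scd1 (NM_009127), the desaturase that makes oleate, read 3.02 for CBA 1 over BL10 1 and -1.25 for CBA 2 over BL10 2, with close duplicate spots in both cases. Fasn (AF127033), fatty acid synthase, read 2.65 and -1.57, and Acaca (AF289714), acetyl-CoA carboxylase, 2.16 and -0.94. These were singled out after the values were seen, as the widest gaps between the arrays among all named features, at 4.27, 4.22 and 3.10. Their fits of 1.004 ± 1.23, 1.19 ± 1.18 and 0.59 ± 0.72 do not separate the strains. Gpd1, glycerol-3-phosphate dehydrogenase, Tkt, transketolase, and Ucp1, the uncoupling protein of brown fat, were picked in the same way and showed the same order, with 1.04 and -0.12 for Gpd1, 1.10 and -0.29 for Tkt, and 1.18 and 0.02 for Ucp1. On the array of BL10 2 over DBA 1 Fasn read 1.90 and Scd1 1.98, and on that of BL10 1 over BALB 2 they read 0.79 and 1.18.

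The list of lipid synthesis and fat cell genes had 15 of 21 features above zero, against 3776 of 7697 over all features, and a median of 0.10. It had 4 spots of one sign for 1 feature (4.76% against 25.6% of all features). Its median after dye removal was 0.11 for CBA 1 over BL10 1 and -0.35 for CBA 2 over BL10 2. Fabp4 (K02109), the fatty acid carrier of fat cells, read 0.60 and -1.25, and the 5 fat cell markers on the array, of which 3 had fits above zero, had a median fit of 0.02 and median dye-removed ratios of -0.10 in the first pair and -0.02 in the second. The part of fat cells in the gap was not tested. Hba-a1 (NM_008218), alpha globin, which marks blood left in the muscle, read 0.50 and -2.19, and 2.57 for BL10 2 over DBA 1. Of the 20 widest gaps among named features 10 came from duplicate spots over 1 apart on an array. Examples picked after their values were seen are Vps45 (NM_013841), a sorting protein, with -4.71 and 0.38, and Nptx1 (NM_008730), a neuronal pentraxin, with -4.01 and -0.06.

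**Figure D5:**
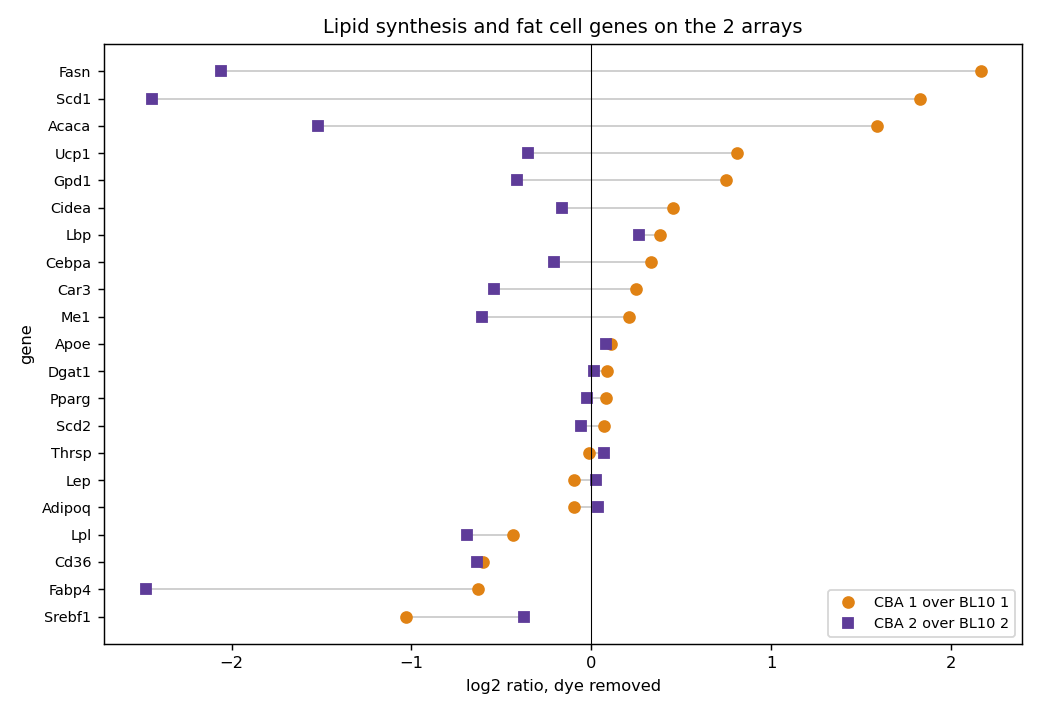
The dye-removed log2 ratio of CBA to BL10 is shown for the 21 features of the lipid synthesis and fat cell list, as circles for CBA 1 over BL10 1 and squares for CBA 2 over BL10 2. Fasn, Scd1 and Acaca lie above 1.5 in the first pair and below -1.5 in the second, while most other members lie within 1 of zero in both.

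Collagens and matrix genes were balanced, with 18 of 37 features above zero and 19 below. Timp2 (NM_011594), an inhibitor of metalloproteases, read 0.31 in the first pair and 0.32 in the second with a fit of 0.69 ± 0.14 and 0.57 without BL6 1, and Loxl1 (U79144), which crosslinks elastin, 0.04 and 0.13 with a fit of 0.84 ± 0.17 in which the dye term was -0.75. Col4a3 (NM_007734), a basement membrane collagen, read -0.51 and -0.56 with a fit of -0.80 ± 0.19, and Sparc (NM_009242), a matrix protein of remodelling tissue, -0.34 and -0.44 with a fit of -0.46 ± 0.24. Without BL6 1 these were -0.06 and 0.53. Antioxidant genes had a median of -0.06 over 31 features. Among them Gsto1 (NM_010362), a glutathione transferase, read -0.45 and -0.43 with a fit of -0.57 ± 0.19, opposite to Gsr.

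Of the remaining lists, ribosomal proteins had 23 of 34 features above zero, against 3776 of 7697 over all features, and a median of 0.05. Rpl8 read 0.23 and 0.38, with a fit of 0.72 ± 0.16. Proteasome and ubiquitin genes had a median of -0.03, clock genes one of -0.05 and immediate early genes one of -0.01. Tef, a clock output factor, read 0.12 and 0.19 with a fit of 0.66 ± 0.18, and Cry1, a repressor of the clock, 0.16 and 0.34 with a fit of 0.32 ± 0.16. Jund and Fosl1, AP-1 factors, had fits of -0.69 ± 0.23 and -0.52 ± 0.18, and of -0.14 and -0.43 without BL6 1. Histocompatibility and antigen presentation genes had 5 of 7 features above zero and a median of 0.21, against -0.29 without BL6 1. These strains carry different haplotypes at the H2 complex, which does not hold all members of the list. Cd1d1, which presents lipids, is on chromosome 3 and Cd74, the invariant chain, on chromosome 18. They read 0.55 and 0.15 for Cd1d1 and -0.20 and 0.22 for Cd74, with fits of 0.22 ± 0.24 and 0.21 ± 0.43.

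Markers of the cell types in the muscle had median fits close to zero. They were -0.13 over 9 features for muscle fibres, 0.06 over 13 for leukocytes, 0.06 over 3 for red blood cells, 0.02 over 7 for endothelium, -0.05 over 10 for nerve and Schwann cells, -0.01 over 6 for fibroblasts and -0.01 over 7 for satellite cells and myoblasts. Of the leukocyte markers 10 of 13 lay above zero, against 3776 of 7697 over all features. In this list 4 spots were of one sign for 3 higher and 1 lower (30.8% against 25.6% of all features). Besides Cd68, C1qa (NM_007572), a complement protein of macrophages, had a fit of 0.87 ± 0.19 (adjusted p = 0.264, limma), but its ratios before dye removal were -0.42 and 0.00 and the dye term of the fit was -1.07. It was 1.37 without BL6 1 and -0.21 with no dye term. Other leukocyte markers, picked after their values were seen, did not follow, with fits of 0.03 for C1qb and 0.06 for C1qc of the same complex, -0.34 for the macrophage receptor Adgre1 and -0.15 for the integrin Itgb2. The part of a different macrophage content in the values of Cd68 was not tested.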

How the data were processed

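The authors extracted spot intensities with GenePix, corrected them for local background and normalized them by variance stabilization (VSN), and deposited 1 log ratio of Cy5 over Cy3 per spot. The deposited values were taken as natural log, the scale of that method, since the sources used here do not state the base. Duplicate spots were averaged, each array was centred on its median and values were turned into log2. Differences were fitted with limma 3.58.1 (R 4.3.3) over 8 arrays, with strain, a gene-wise dye term and 1 ratio of animal to array variance. That ratio was 0.446 by restricted maximum likelihood, and the fit left 3 residual degrees of freedom and 6.13 of the prior. MASS 7.3.60.0.1 served only for fits in which some terms could not be separated. P-values rest on 2 animals per strain and were adjusted after Benjamini and Hochberg over 7697 features, at an FDR of 10%. The fit was tested on simulated data. There it called 24 of 67 features changed by 0.5, 67 of 67 changed by 1 and 66 of 66 changed by 2 (log2). It also called 25 unchanged features. In the data the fit was above 1 for 4 features and below -1 for 19, and 3 features passed. The simulated shares therefore do not give the share of real changes that would be called here. Levels are not part of the ratios, so signal over background is unknown, and the number of arrays limits the precision. Named genes passed the FDR or, up to 12 in a direction, had 4 spots of one sign and an unadjusted p under 0.05, ordered by their smallest spot. Up to 4 of each list, up to 3 in each direction that turned with the dye and those of the study's text were added, other genes are marked as picked later, and some that this rule allows are given only within counts. The comparison, its members and the gene lists were chosen with earlier results of these data known. Alternatives covered scaling, dye, duplicates, left-out animals and the arrays with equal values.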

Additional observations from a re-analysis of the deposited data

How the results depend on the processing

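At FDR 10% the 3 features of CBA minus BL10 became 1956 with only the 4 arrays of the comparison and the dye, 8 with all 10 arrays, 5 or 10 with the shared values once as BALB 1 over CBA 2 or BL6 2 over CBA 1, 43 with equal spreads, 24 with quantile scaling and 1 with an ordinary test. The 3 features kept their calls in each of these but the last, where 0 did, while with the second spot alone Rnu5g was lost. For BL10 against the other strains the 3 became 5 with 10 arrays, no centring or a robust fit, 6 as BALB 1 over CBA 2, 67 with equal spreads, 11 with quantile scaling, 1 with the first spot and 0 with the ordinary test. Without 1 animal the counts ran from 3 to 2242 for CBA minus BL10, 0 to 1720 for CBA and 3 to 1362 for BL10 against the others, with 2242 without BALB 2, 1323 without DBA 1, 643 without BALB 1, 58 without BL6 1 (43 of them higher in CBA), 17 without BL10 2, 9 without BL10 1, 6 without CBA 1, 5 without CBA 2 and 3 without BL6 2. With the replicate number as a block, where numbers name animals and pair nothing, 3 features passed for CBA minus BL10, with an adjusted p of 0.0662 for Rnu5g, 0 for CBA and 3 for BL10 against the others. The fit without DBA 2 and the fits of 4 arrays for the other contrasts could not be fitted. With 4 spots beyond 0.2, 461 features agreed, and 3223 to 3287 did on 1 array alone. Without a dye term 9 lists had a median below zero. The fit of 4 arrays had 1 residual degree of freedom, against 3 in the main fit. Fits without BALB 2, DBA 1, BL6 1, BL10 1 or BL10 2 had 1 as well. In the fit of 4 arrays and that without BALB 2, the residual held only the gap between the 2 arrays of CBA and BL10. Error in the dye value was not part of that residual. Counts from such fits cannot be set beside the 3 features. The cause of the changes between settings was not tested.

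Signs of single genes turned as follows. Without a dye term the difference was 0.11 for Tnni1, -0.21 for C1qa, 0.14 for Atp2a2, 0.036 for Pvalb, -0.57 for Septin3, 0.14 for Ddx6, -0.51 for Slfn1, 0.19 for Cmya5, -0.63 for Fbp1, -1.02 for Nkx2-1, 0.18 for Ccng1, -0.056 for Thbs4. With all 10 arrays it was -0.10 for C1qa, 0.26 for Pvalb, -0.12 for Ctdsp1, 0.004 for Ddx6, 0.024 for Ccng1, -0.021 for Thbs4. As BALB 1 over CBA 2 it was 0.19 for Pvalb, 0.039 for Cmya5, 0.075 for Ccng1, -0.014 for Thbs4, and as BL6 2 over CBA 1 -0.057 for C1qa, 0.10 for Pvalb, -0.10 for Ctdsp1, -0.01 for Thbs4. The first spot alone gave -0.094 for Cd74, -0.14 for Ctdsp1, -0.043 for Thbs4, the second 0.079 for Vps45, and 4 arrays -0.31 for Scd1. Without 1 animal the differences of the genes that turned ranged as follows, Cstb -0.13 to 0.94, Scd1 -1.10 to 3.17, Acaca -0.98 to 2.13, Tkt -0.53 to 0.86, Ucp1 -0.041 to 1.26, Fasn -0.85 to 3.37, Tmod1 -0.54 to 0.061, Hba-a1 -2.05 to 0.65, Vps45 -2.25 to 0.21, Nptx1 -2.01 to 0.072, Cd74 -0.29 to 0.76, Fabp4 -1.55 to 1.64, Endou -0.059 to 1.11, Phka1 -1.06 to 0.49, Adcy3 -0.014 to 1.02, Cd1d1 -0.46 to 0.48, Cblif -1.19 to 0.11, Ndufa4 -1.55 to 0.003, Kcna3 -1.24 to 0.40, Gnb4 -0.05 to 1.05, Mad1l1 -1.21 to 0.23, Neb -1.49 to 1.72, Cox7c -1.01 to 0.36, Ctdsp1 -0.25 to 1.22, Sparc -0.73 to 0.53, Myom1 -0.58 to 0.40, Ddx6 -0.64 to 0.062, Tnnc2 -1.14 to 0.085, Camk2d -1.33 to 0.37, Cmya5 -0.66 to 1.80, Dnaja1 -0.38 to 0.026, Neb -1.29 to 0.98, Cox5b -1.22 to 0.13, Tead4 -1.45 to 0.45, Tcirg1 -1.37 to 0.27, Ccng1 -0.63 to 0.52, Neb -0.91 to 1.01, Hsph1 -0.85 to 0.12, Rdx -1.27 to 0.39, Itgax -1.40 to 0.26, Dysf -0.54 to 0.50, Sva -1.11 to 0.25, Gsto1 -0.74 to 0.15, Actn2 -0.75 to 0.074, Neb -0.999 to 1.37. The direction of C1qb, C1qc, Adgre1, Itgb2 and the other features of Phka1 was not recorded across these fits. The remaining named genes not listed here kept their direction in all fits that were run.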
